A study of Mus musculus with 24 samples.

Results

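Enhancer and promoter maps of fibroblasts from a tumour and from a healing wound were compared. Histone H3 acetylated at lysine 27 (H3K27ac) had been mapped by ChIP-seq in WT cancer-associated fibroblasts from the mammary tumours of MMTV-PyMT mice (MMTV-CAFs, strain FVB/NJ) and in WT wound-healing fibroblasts (strain C57BL/6), which came from wounds of the dorsal skin collected on day 10. The 2 lists held 53873 and 33465 summits, which is 87338 of the 309261 summits in the 7 H3K27ac lists of the series. A summit is the 1-bp position of highest signal in a peak, and it was counted as shared when the other list held a summit within 500 bp. WT means cells that carried Cas9 with a control guide RNA without a target (sgNS), and sgPrrx1 means cells of the same type in which a guide against Prrx1, a homeobox gene of mesenchymal cells, had been used. Both types carried the oncogenes E6 and E7 of a papillomavirus, which make cells immortal, so the lists describe cultured lines and not cells in their tissue. Whether a line was a single clone was not given in the sources used here.

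Each group had 1 library and 1 list, so no test between the types was possible and no p-value is given. Tumour and wound, FVB/NJ and C57BL/6, mammary gland and dorsal skin, and the depth of the libraries, which the lists do not give, cannot be told apart. The sgPrrx1 lists of the same types (61603 and 43058 summits) are second libraries of each type that the sharing rule did not use. They also differ by the targeting of Prrx1 and are not replicates. At Prrx1 itself, the gene body with 10 kb on each side held 26 summits in WT MMTV-CAFs, 12 in WT wound-healing fibroblasts, and 27 and 12 in the sgPrrx1 lists, so this mark gives no check of the deletion.

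H3K27ac is laid down by the acetyltransferases p300 and CBP on nucleosomes beside active promoters and active enhancers. Promoters of widely used genes carry it in most cell types, whereas enhancers far from genes carry it in a pattern that differs between cell types. Fibroblasts keep a memory of their place in the body in homeobox genes such as the Hox clusters, and fibroblasts in tumours and wounds secrete collagens, matrix enzymes and growth factors. Clusters of neighbouring enhancers with much H3K27ac, called super-enhancers, often lie at genes that define a cell type.

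Both lists carried the mark at fibroblast genes. Of 18 fibroblast markers, 14 had summits in both lists, 2 in MMTV-CAFs only (Dcn and Lum), and 2, Fap and Tcf21, in neither. For comparison, of all 22367 protein-coding genes, counted with 10 kb on each side, 12650 had summits in both lists and 14222 in either. Of 16 markers of epithelial and mammary tumour cells, 8 had 0 summits in both lists, among them Epcam, Krt18, Elf5 and Foxa1. Krt7 had 1 in MMTV-CAFs only, and 7 had summits in both. Of these, Krt8, a simple epithelial keratin, had 5 in MMTV-CAFs and 2 in wound-healing fibroblasts, Krt19 had 3 and 2, Cdh1 2 and 1, and the rest 1 or 2 in each. The summed count was 17 against 11, and 10 against 11 in lists of equal size. Of 12 keratinocyte markers, 8 were at 0 in both, among them Krt5, while Trp63 had 7 and 3, Sfn 3 and 1, Krt10 2 and 1, and Krt14 1 and 0. The leukocyte gene Ptprc was at 0 in both.

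Some of the strongest distal summits of 1 type that lay beyond the stitching distance from any summit of the other are printed here, since they are the sites at which the types were furthest apart. The stitching distance, between 12 and 13 kb, is the default within which the super-enhancer caller ROSE joins neighbouring enhancers. Distal means over 1 kb from the transcription start site (TSS) of a protein-coding gene. Sequences are 201 bases of the mm9 genome, plus strand, centred on the summit, with the annotation of GENCODE vM1. Capitals mark matches to any of 11 motif words that are spelled out further on, so an entry without capitals held none of them in these 201 bases. The first MMTV-CAF entry is the strongest by −log10 p. The next 3 are the strongest outside the first 10 Mb of chromosome 9, and were chosen after the strongest 3 were all found in that stretch, which is described below. The entries at Col14a1 and Kdr, also chosen after their values were seen, are the strongest distal type-only summits of genes at which both libraries of 1 type had summits and both of the other had none. The Kdr entry is not held to the stitching distance, and an MMTV-CAF summit lay 1835 bp from it.
MMTV-CAF, intergenic, chr9:6540733-6540933: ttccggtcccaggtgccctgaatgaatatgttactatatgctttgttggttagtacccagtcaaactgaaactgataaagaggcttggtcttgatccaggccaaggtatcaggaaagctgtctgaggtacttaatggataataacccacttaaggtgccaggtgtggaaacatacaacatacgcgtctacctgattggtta
MMTV-CAF, Abcg1 intron, chr17:31212079-31212279: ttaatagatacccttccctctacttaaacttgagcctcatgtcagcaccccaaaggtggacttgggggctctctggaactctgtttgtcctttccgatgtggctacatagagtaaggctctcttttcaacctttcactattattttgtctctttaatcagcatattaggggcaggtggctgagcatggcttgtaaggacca
MMTV-CAF, Abcg1 intron, chr17:31210235-31210435: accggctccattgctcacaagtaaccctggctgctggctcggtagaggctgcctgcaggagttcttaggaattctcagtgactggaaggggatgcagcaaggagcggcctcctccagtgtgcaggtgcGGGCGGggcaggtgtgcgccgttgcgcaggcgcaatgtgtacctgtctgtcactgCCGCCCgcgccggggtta
MMTV-CAF, intergenic near Ezh2, chr6:47622824-47623024: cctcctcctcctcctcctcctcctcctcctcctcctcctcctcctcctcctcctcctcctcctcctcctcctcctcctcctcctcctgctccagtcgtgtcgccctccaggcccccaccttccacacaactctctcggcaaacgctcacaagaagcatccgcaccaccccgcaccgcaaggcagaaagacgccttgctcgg
MMTV-CAF, Col14a1 intron, chr15:55164862-55165062: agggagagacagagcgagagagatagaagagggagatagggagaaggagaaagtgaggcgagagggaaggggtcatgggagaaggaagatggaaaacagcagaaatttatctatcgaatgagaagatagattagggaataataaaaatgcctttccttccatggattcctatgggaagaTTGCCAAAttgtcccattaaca
Wound-healing, Gm20388 intron near Banp, chr8:124580539-124580739: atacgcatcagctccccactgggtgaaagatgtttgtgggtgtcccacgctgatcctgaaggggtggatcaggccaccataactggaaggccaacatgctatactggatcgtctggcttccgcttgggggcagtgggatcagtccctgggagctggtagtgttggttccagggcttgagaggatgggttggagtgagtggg
Wound-healing, intergenic near 4932442E05Rik, chr10:118277107-118277307: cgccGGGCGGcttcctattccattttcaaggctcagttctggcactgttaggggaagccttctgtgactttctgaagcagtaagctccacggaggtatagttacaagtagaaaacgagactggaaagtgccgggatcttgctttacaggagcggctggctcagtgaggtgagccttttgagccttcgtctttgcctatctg
Wound-healing, intergenic upstream of Kdr, chr5:76384046-76384246: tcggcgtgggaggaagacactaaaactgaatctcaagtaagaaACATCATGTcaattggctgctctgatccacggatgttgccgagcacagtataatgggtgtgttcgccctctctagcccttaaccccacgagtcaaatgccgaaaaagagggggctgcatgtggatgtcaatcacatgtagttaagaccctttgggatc
The chromosome 9 site had a −log10 p of 117 in WT MMTV-CAFs, lay 274286 bp from the nearest protein-coding TSS (Ddi1), and had no summit within 500 bp in either sgPrrx1 list. The first Abcg1 site (82.3) had a summit of 11.4 in sgPrrx1 wound-healing fibroblasts and none in sgPrrx1 MMTV-CAFs, and the second (82.1) had the reverse, 52.5 in sgPrrx1 MMTV-CAFs alone. The site 77584 bp from Ezh2 (81.1) carried 105 in sgPrrx1 MMTV-CAFs and 15.1 in sgPrrx1 wound-healing fibroblasts. It contains a run of repeated cct triplets. The wound-healing sites near Banp (56.8) and 4932442E05Rik (42.1) were found again in sgPrrx1 wound-healing fibroblasts, at 49.9 and 93.3, and neither had a summit within 500 bp in sgPrrx1 MMTV-CAFs. The Col14a1 site (34.0) recurred in sgPrrx1 MMTV-CAFs at 21.9, and the Kdr site (16.3) in sgPrrx1 wound-healing fibroblasts at 38.7.

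Most strong summits were common to tumour and wound fibroblasts, and most weak ones of the MMTV-CAFs were not. Of the MMTV-CAF summits, 41.3% (Wilson 95% interval 40.9 to 41.7) were shared and 31625 were not (58.7%). Of the wound-healing summits, 67.7% (67.2 to 68.2) were shared and 10815 were not (32.3%). The longer list has more summits to leave unmatched, since it is 1.61 times the length of the shorter. With the MMTV-CAF list held to its 33465 strongest summits, the shares came to 59.2% and 61.0%. These intervals, like all below, cover counting over summits and not differences between cultures.

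Strength and position both ordered the sharing. In the MMTV-CAF list the shared portion climbed from 10.1% in the weakest quartile to 88.8% in the strongest. In the wound-healing list it climbed from 51.5% to 85.9%. Promoter summits, those within 1 kb of a protein-coding TSS, were shared in 75.7% of cases for MMTV-CAFs and 77.9% for wound-healing fibroblasts. Distal summits were shared in 28.3% (27.9 to 28.8) and 59.7% (59.0 to 60.4). Within the strongest quartile, distal summits still fell short of promoters, at 78.3% against 94.4% in MMTV-CAFs and 74.8% against 89.2% in wound-healing fibroblasts.

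**Figure D1:**
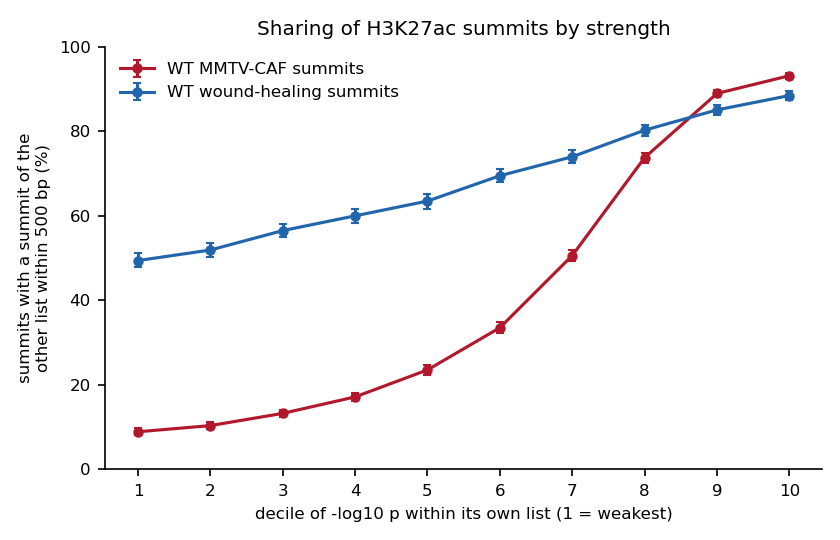
Share of WT H3K27ac summits with a summit of the other type within 500 bp (y axis, %) for deciles of the list ordered by −log10 p (x axis, 1 is the weakest); lines are the 2 lists and bars Wilson 95% intervals. The MMTV-CAF line climbs from 8.84% to 93.2% and the wound-healing line from 49.4% to 88.5%.

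Summits found in 1 type only were weak and mostly distal. MMTV-only summits had a median −log10 p of 12.1 against 35.6 for shared ones, 88.6% were distal, and their median distance to a TSS was 15.3 kb. Wound-only summits had a median of 11.7 against 18.2, 69.9% were distal, and the median distance was 4.17 kb. They were also placed differently with respect to the other list. Of wound-only summits, 48.9% had an MMTV-CAF summit within 1 kb and 12.4% had none within the stitching distance. Of MMTV-only summits, 16% had a wound-healing summit within 1 kb and 39.5% had none within the stitching distance. For 5288 wound-only summits, then, MMTV-CAFs were acetylated close by but with another summit position.

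The classes were then looked up in lists that did not define them. MMTV-only summits lay within 500 bp of a sgPrrx1 MMTV-CAF summit in 50.3% (49.8 to 50.9) of cases and of a sgPrrx1 wound-healing summit in 26.8% (26.3 to 27.3). The former list is the longer (61603 against 43058 summits), and shared MMTV-CAF summits also lay near it more often, at 83.3% against 78.8%. Wound-only summits were found in sgPrrx1 wound-healing fibroblasts in 44.6% (43.7 to 45.5) and in sgPrrx1 MMTV-CAFs in 34.7% (33.8 to 35.6), although the former list is the shorter. Each class was thus more often present in the second library of its own type. The gap was wider for summits beyond the stitching distance, at 49.3% against 24.2% for MMTV-CAFs and 67.3% (64.8 to 69.8) against 27.5% (25.2 to 30) for wound-healing fibroblasts. A sizeable share was found in neither sgPrrx1 list, 40.4% of MMTV-only and 39.8% of wound-only summits, against 6.90% and 6.85% of the shared ones. WT embryonic fibroblasts (MEFs) held 31.5% of the MMTV-only and 45.0% of the wound-only summits. The paper lists MEFs under the strain given above for the wound-healing fibroblasts, not under that of the MMTV-CAFs. The part of strain in the difference between these MEF shares was not tested.

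**Figure D2:**
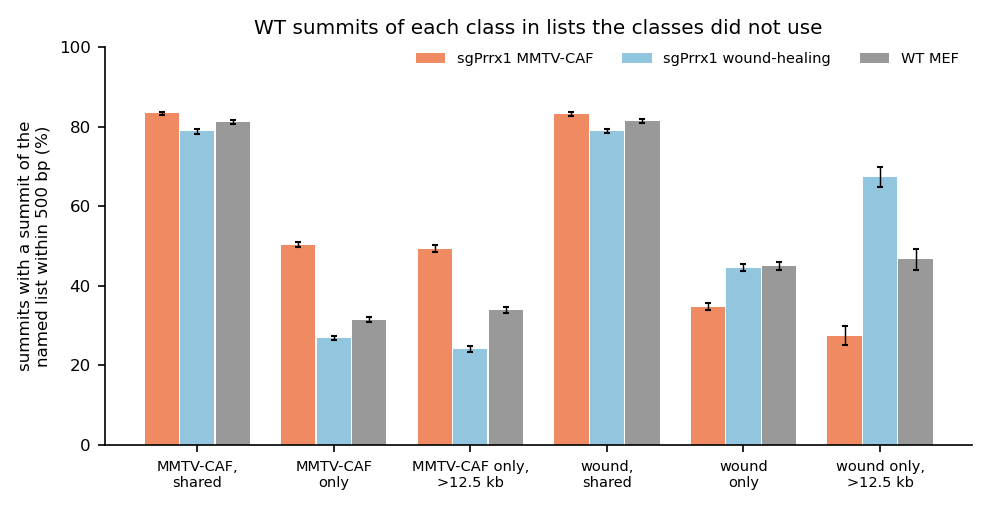
Share of WT summits of each class (x axis) with a summit within 500 bp in 3 lists that did not define the classes (y axis, %); classes beyond the stitching distance are drawn apart, bars are the lists, 1 library each, and error bars Wilson 95% intervals. Shared summits sit between 78.8% and 83.3% in all 3 lists, while type-only summits are higher in the sgPrrx1 list of their own type than in that of the other.

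The same comparison between the sgPrrx1 lists gave 42.5% of MMTV-CAF summits shared and 59.9% of wound-healing summits shared. There, distal summits were shared in 32.3% and 50.3% of cases and promoter summits in 71.3% and 79.0%.

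The classes also differed in other marks and in sequence. H3K4me3, trimethylation of lysine 4 that is strongest at promoters, had been called as 27339 broad regions in WT MMTV-CAFs and 16961 in WT wound-healing fibroblasts. An MMTV-CAF region covered 60.5% of the MMTV-CAF distal summits that were shared and 30.1% of those that were MMTV-only, and a wound-healing region covered 22.0% and 6.96%. Of wound-only distal summits, 24.5% lay in a wound-healing region and 45.4% in one of MMTV-CAFs, whose list is longer. Prrx1 summits of MMTV-CAFs (8000 in all) lay within 500 bp of 9.43% of shared and 5.90% of MMTV-only summits. Prrx1 summits of wound-healing fibroblasts (5698) lay near 6.88% of shared and 4.97% of wound-only summits, and near 2.47% of MMTV-only ones. Prrx1 summits of MMTV-CAFs lay near 6.52% (6.07 to 7) of wound-only summits, so they were at least as frequent there as at MMTV-only summits. In the bases within 250 bp of a summit, 10 or more CpG dinucleotides were present in 25.1% of shared distal, 11.8% of MMTV-only distal and 22.5% of wound-only distal sites.

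Motif words were counted on both strands within 250 bp of a distal summit and, for comparison, around points 2 kb away. The AP-1 word (TGANTCA), bound by Fos and Jun dimers, was in 22.2% (21.8 to 22.7) of MMTV-only and 18.3% (17.4 to 19.2) of wound-only distal sites, with 15.4% and 15.3% at the points 2 kb away. Shared distal sites held it in 21.6%. For sites beyond the stitching distance the shares were 25.3% and 19.5%. The GC-rich SP/KLF word (GGGCGG) went the other way, with 7.96% (7.65 to 8.28) of MMTV-only and between 11.8% and 13.3% of wound-only sites (946 of 7564), and 8.57% and 11.9% at 2 kb, so most of that difference was present away from the summits too. Homeodomain words (TAATTA) were in 10.7% and 7.81%, below the 13.6% and 11.3% at 2 kb. The TEAD word (GGAATG) was in 27.9% and 27.8%. The E-box (CAGCTG) was found in 26.3% and 27.4%, and the ETS word (CCGGAAG) in 2.23% and 3.11%. The RUNX word (TGTGGTT), the NF-I monomer site (TTGGCA), the C/EBP word (TTGCNNAA), the steroid receptor word (ACANNNTGT) and the STAT word (TTCNNNGAA) were in 12%, 25.6%, 19.7%, 15.4% and 15.8% of MMTV-only sites. In wound-only sites they were in 11.3%, 25.3%, 17.6%, 14.9% and 13.8%. A match says only that the letters are there.

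One stretch of chromosome 9 stood apart in the WT MMTV-CAF library and has to be set out before the genes. Between bases 6000001 and 9000000, which hold Yap1, a cluster of matrix metalloproteinase genes, Dync2h1, Ddi1 and Pgr, WT MMTV-CAFs had 211 H3K27ac summits and WT wound-healing fibroblasts 27. The sgPrrx1 lists had 25 in MMTV-CAFs and 64 in wound-healing fibroblasts, and WT MEFs had 40. H3K4me3 regions there numbered 73 in WT MMTV-CAFs, 13 in WT wound-healing fibroblasts, and 14 and 18 in the sgPrrx1 lists. Prrx1 summits numbered 187 in WT MMTV-CAFs, 2.34% of that whole list, and 6 in WT wound-healing fibroblasts. All 3 antibodies were therefore dense there in 1 line, and in the sgPrrx1 line of the same type H3K27ac and H3K4me3 were not. Whether the number of DNA copies of the stretch differed between the lines was not tested, because input libraries were not analysed here, and the counts and ranks at Yap1, Ddi1 and the metalloproteinase genes are given with that limit. Over the first 10 Mb of the chromosome the count was 251 against 41 in WT and 64 against 113 in the sgPrrx1 lists. Relative to list length, the ratio of 3.73 was the highest of 251 bins of 10 Mb, of which 90.4% lay within 1.5 times the ratio of the lists.

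**Figure D3:**
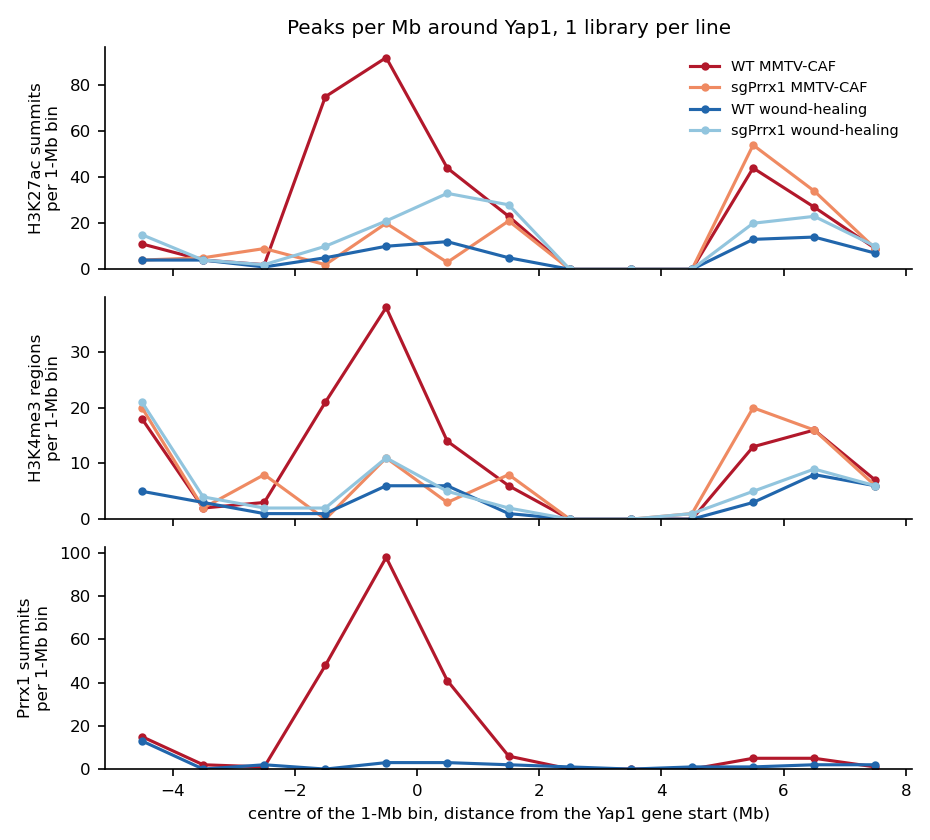
Number of H3K27ac summits, H3K4me3 regions and Prrx1 summits (y axes, per 1-Mb bin) against the distance of the bin centre from the Yap1 gene start (x axis, Mb); lines are single libraries. WT MMTV-CAFs reach 92 H3K27ac summits, 38 H3K4me3 regions and 98 Prrx1 summits in the bin centred at −0.505 Mb, where WT wound-healing fibroblasts have 10, 6 and 3 and sgPrrx1 MMTV-CAFs 20 and 11.

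At the level of genes, most loci active in 1 type were active in both. A gene was counted with 10 kb on each side. Of 22367 protein-coding genes, 14222 had a summit in either list and 12650 in both, with a median of 3 summits in MMTV-CAFs and 2 in wound-healing fibroblasts. Genes with 3 or more summits in MMTV-CAFs and 0 in wound-healing fibroblasts numbered 300 (1.34% of genes), and 45 genes (0.201%) had the reverse. Lists of equal size gave 112 and 66, and a −log10 p of at least 10 gave 319 and 19. Without the first 10 Mb of chromosome 9 the counts were 295 and 44. A wider class held at least 3 summits and at least 3 times the number of the other type, with 1690 genes (7.56%) for MMTV-CAFs and 232 (1.04%) for wound-healing fibroblasts. In lists of equal size the wider class held 526 genes for MMTV-CAFs and 556 for wound-healing fibroblasts, so no excess for the tumour type was left there. Among the members of the gene lists described below, those that kept the MMTV-CAF side there included Dcn, Col18a1, Kitl, Pdgfc, Vegfc, Osr1, Tbx18, Ebf1, Csf1r, Mitf, Rgs5, Cxcl5, Ccl7, Sox9, Plau, Sfn, Hprt, Hoxa4 and Yap1. Equal lists drop summits of MMTV-CAFs only, so a wound-healing gene cannot lose its side.

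The sgPrrx1 lists repeated part of these calls. Of the 1690 genes with 3 times the summits in MMTV-CAFs, 461 (27.3%) had the same in the sgPrrx1 lists, where 6.74% of all genes did, and 55 had the opposite. Of the 232 wound-healing genes, 38 (16.4%, against 1.99% of all genes) repeated and 17 were opposite. Of genes with 3 or more against 0, 60 of 300 (20%) and 16 of 45 (35.6%) had 3 or more against 0 again, where 1.23% and 0.684% of all genes did. The sgPrrx1 list of the same type had more summits than that of the other type at 70.3% and 82.2% of them, and at 50% and 23% of all genes with a summit in either sgPrrx1 list.

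Several matrix genes, named one by one here, were on the MMTV-CAF side. Col14a1, which encodes a fibril-associated collagen (chr15:55139305-55352358), held 12 summits in WT MMTV-CAFs, 0 in WT wound-healing fibroblasts, and 10 and 0 in the sgPrrx1 lists. Fbln1, the matrix protein fibulin-1, held 12 against 0 and, in the sgPrrx1 lists, 14 against 3. Dcn, the small proteoglycan decorin that binds collagen fibrils, had 8 against 0, then 9 against 1. At these 3 genes both MMTV-CAF libraries had more summits than either wound-healing library, as at 15.2% of all genes, and 3.02% of genes had the reverse. Within 60 kb of the Dcn start there were 18 summits in WT MMTV-CAFs, 17 in sgPrrx1 MMTV-CAFs, 0 in WT wound-healing fibroblasts and 4 in sgPrrx1 wound-healing fibroblasts. Col18a1, source of the fragment endostatin, had 10 against 0, then 15 against 3. Col28a1, with 24 against 0, fell to 8 against 2 in the sgPrrx1 lists. Both Dcn and Col18a1 held in lists of equal size, whereas Col3a1, a fibrillar collagen with 19 against 5 and then 13 against 6, did not. Other matrix genes had more summits in WT wound-healing fibroblasts, among them Fbln2 (9 against 17), Sparc (13 against 18) and Thbs1 (5 against 9). In the sgPrrx1 lists they had 9 against 8, 11 against 5 and 8 against 6, so their order turned. Fbln2 (2 against 17) and Thbs1 (2 against 9) were on the wound-healing side in lists of equal size.

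Developmental regulators were also among the genes of the MMTV-CAFs. Meox2, a homeobox gene of mesoderm, had 12 summits in WT MMTV-CAFs and 0 in WT wound-healing fibroblasts, then 5 and 0. Osr1, a zinc-finger gene of embryonic connective tissue, had 9 against 1, then 10 against 2. Tbx18, a T-box gene of mesenchyme, had 6 against 1, then 8 against 1. These 3 genes also belong to the 15.2% with more summits in both MMTV-CAF libraries. Etv1 (9 and 14 against 0 and 0) was of the same kind. Prdm6, a regulator of smooth muscle genes, had 11 against 0 but 2 against 0 in the sgPrrx1 lists.

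Signalling genes followed. Kitl, the ligand of the receptor Kit, had 7 summits in WT MMTV-CAFs and 1 in WT wound-healing fibroblasts, then 12 and 2 in the sgPrrx1 lists. Hgf, the ligand of Met, had 3 against 0, then 21 against 1. Pdgfb had 3 against 0, then 4 against 0. These ligands were acetylated more widely in the tumour type in both pairs of lists. Met itself had 45 against 10 in WT and 24 against 18 in the sgPrrx1 lists, and Egfr had 22 against 7 and then 9 against 12, so the order at Egfr was not kept. Csf1r, a receptor of macrophages, had 5 against 0, then 6 against 1. Of the 12 immune markers, 7 were at 0 in both WT lists, among them Ptprc, Lyz2, Cd3e and Ikzf1. The others with summits were Cd68 (8 against 5, then 7 against 7), Sfpi1 (2 against 0, then 3 against 1), Itgam (1 against 0, then 2 against 1) and Tyrobp (1 against 2, then 1 against 1). Their part in the Csf1r counts was not tested. Mitf, a regulator of melanocytes and other lineages, had 14 against 1, then 23 against 4, with the melanocyte genes Dct, Tyr and Sox10 at 0.

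Several genes that led the MMTV-CAF side in WT did not recur in its second library. Rasgrf2, an exchange factor for Ras and Rac, had 18 summits in WT MMTV-CAFs and 0 in WT wound-healing fibroblasts, but 0 and 1 in the sgPrrx1 lists. Ptprq had 13 against 0, then 1 against 2. Yap1, the coactivator of the TEAD factors, had 40 against 3, then 6 against 10, and 1700128F08Rik 11 against 0, then 0 against 1; both lie in the dense stretch of chromosome 9. The matrix enzyme gene Mmp13, also in it, had 3 against 0, then 0 against 0. The other genes with the most summits against 0 were Dner (16, then 8 against 1), Fam135b (13, then 5 against 3), Dgki (13, then 10 against 2) and the sterol transporter gene Abcg1 (11, then 5 against 2).

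A homeobox gene of limb position and a vascular receptor were among the genes of the wound-healing side. Pitx1, known for its part in hindlimb identity, had 4 summits in WT and 4 in sgPrrx1 wound-healing fibroblasts, and 0 in both MMTV-CAF libraries. The homeobox genes Alx4 and Msx2, with 2 against 0 in WT each, were below the 3 summits that the class needs, and had 4 and 3 against 0 in the sgPrrx1 lists. Summits in both wound-healing libraries and none in either MMTV-CAF library, as at these 3 genes, were present at 0.738% of all genes.

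Kdr encodes the VEGF receptor of endothelial cells (chr5:76328852-76374483). It had 7 summits in WT wound-healing fibroblasts and 9 in sgPrrx1 wound-healing fibroblasts, and 0 in both MMTV-CAF libraries. The acetylated region reached beyond the gene. Within 60 kb of its start the lists held 13 and 15 summits in wound-healing fibroblasts and 2 in each MMTV-CAF list, and the latter lay over 10 kb upstream. Of the other endothelial and mural markers, Sox17 was at 0 in all 4 lists, and Erg was at 0 in both WT lists but had 7 against 0 in sgPrrx1 MMTV-CAFs. Cdh5 had 1 WT wound-healing summit, Tek and Tie1 had 1 and 2 WT MMTV-CAF summits, Pecam1 had 7 in MMTV-CAFs and 3 in wound-healing fibroblasts, and Notch3 had 5 and 2. In that list of 10, Kdr had 3 times the summits in the wound type and the pericyte gene Rgs5 in the tumour type (5 against 1, then 3 against 2).

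Other genes of the wound-healing side included Rxfp2, the receptor of insulin-like peptide 3, with 6 summits against 0 and then 3 against 0. Pgr, the progesterone receptor gene, had 3 against 0 and then 15 against 0. It lies in the stretch of chromosome 9 in which the WT MMTV-CAF library was dense. Slc38a1, a glutamine transporter gene, had 6 against 0, then 8 against 2. Thsd7b had 5 against 0, then 3 against 0. The genes with the weakest repeat were Inadl (7 against 0, then 8 against 10), Slfn2 (5 against 0, then 4 against 5) and Zic5 (4 against 0, then 3 against 4), and Pde10a had 7 against 0, then 14 against 9. Pawr and Stag3 had 4 against 0 each, then 9 against 5 and 3 against 0.

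**Figure D4:**
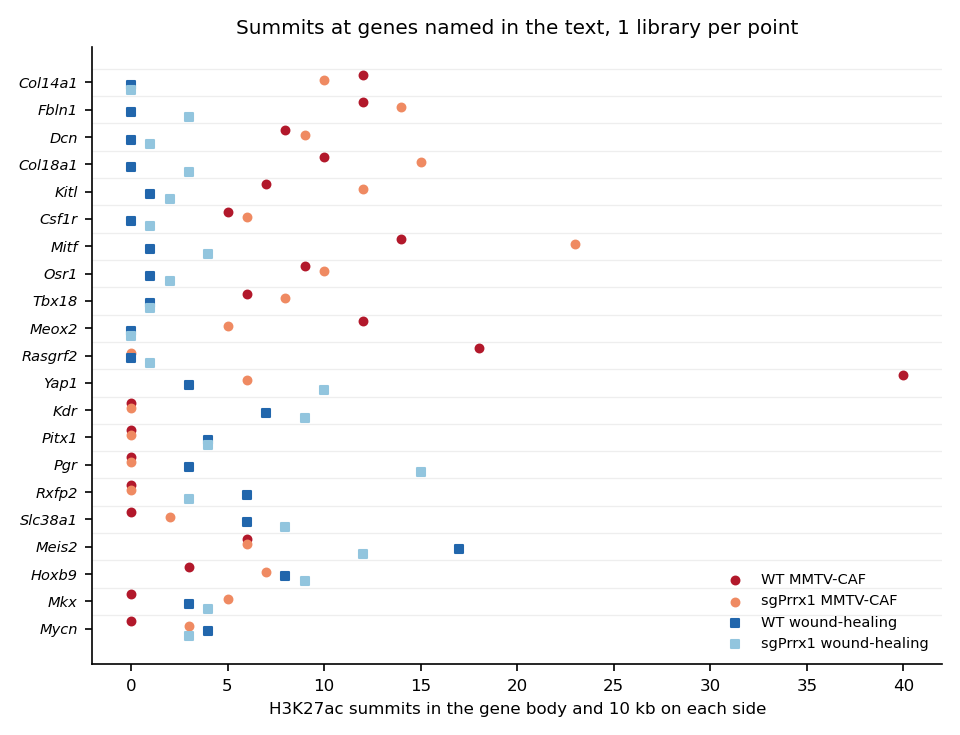
Number of H3K27ac summits (x axis) in the gene body and 10 kb on each side for genes described in the text (y axis); each point is 1 library. Col14a1, Dcn and Osr1 separate both MMTV-CAF libraries from both wound-healing ones, Kdr, Pitx1, Pgr and Rxfp2 do the reverse, and Rasgrf2 and Yap1 are high in WT MMTV-CAFs alone.

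**Figure D5:**
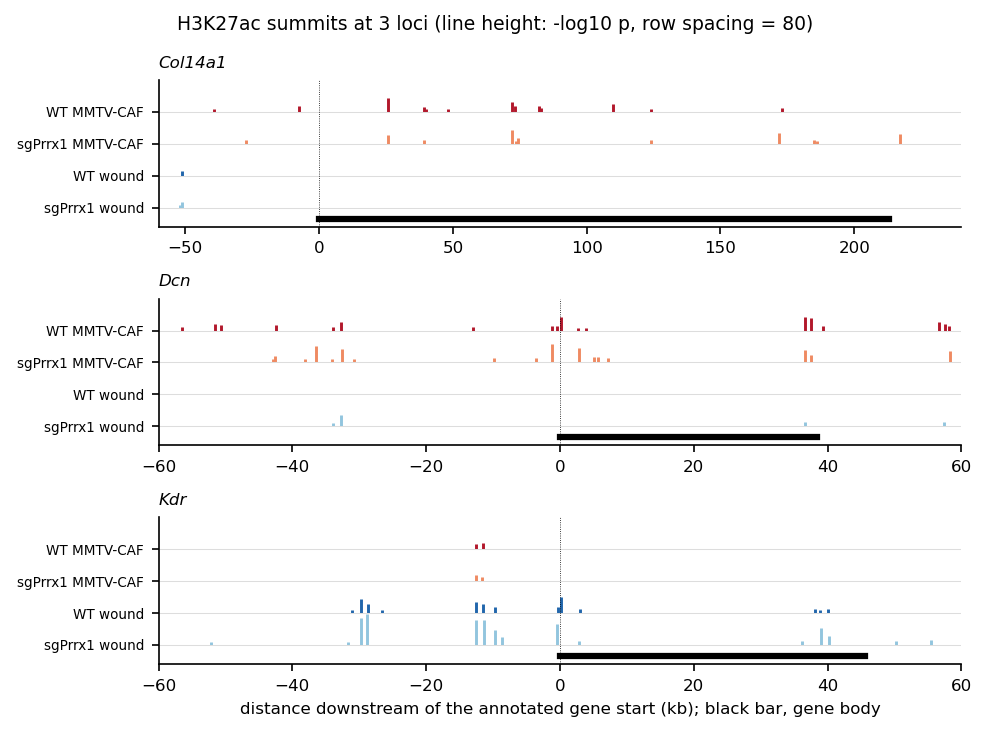
Positions of H3K27ac summits (x axis, kb downstream of the annotated gene start) in 4 libraries (rows) at 3 loci; line height is the −log10 p and the black bar the gene body. The Dcn locus has 18 summits in WT MMTV-CAFs and 0 in WT wound-healing fibroblasts within 60 kb, and the Kdr locus 2 and 13.

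Fixed groups of genes were read against the whole genome, in which 7.56% and 1.04% of genes had 3 times the summits in MMTV-CAFs or in wound-healing fibroblasts, and against a list length ratio of 1.61. Of 24 growth factors and receptors, 9 were on the MMTV-CAF side (Pdgfc, Hgf, Met, Vegfc, Igf1, Kitl, Egfr, Pdgfb and Vegfa) and 0 on the other, with 346 summits against 155 and medians of 8 and 3.50. In lists of equal size 3 of them held (Pdgfc, Vegfc and Kitl), and the sum was 194 against 155. Vegfc had 4 against 1 but then 1 against 2, so its order was not kept in the sgPrrx1 lists. Of 11 adipocyte genes and regulators, 4 were on the MMTV-CAF side, Cebpa, Lpl, Ebf1 and Ebf2, and 0 on the other. Ebf1, a regulator of adipocyte and B cell precursors, had 30 summits against 4, then 24 against 10, and was the 1 that held in equal lists. Lpl, lipoprotein lipase, had 5 against 0, then 6 against 0. Fabp4 and Adipoq, genes of mature adipocytes, were lower, at 1 against 0 and 2 against 0.

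The 22 BMP and Wnt genes had 58 summits against 21. The Wnt antagonist Dkk3 (16 against 3, then 10 against 6), the BMP antagonist Chrdl1 (3 against 1, then 5 against 1) and the ligand gene Wnt10b (6 against 2, then 5 against 1) were on the MMTV-CAF side, and 0 genes were on the other. Collagens had 4 of 16 on the MMTV-CAF side (Col3a1, Col5a2, Col5a3 and Col18a1), with 186 against 124 in all, but 86 against 124 in lists of equal size. Col1a1 and Col1a2, the chains of the main fibrillar collagen, had 8 against 11 and 24 against 23, then 14 against 10 and 17 against 4. The 16 TGF-beta pathway genes had 239 against 159, and 156 against 159 in lists of equal size, where no member kept 3 times the summits. Tgfbr3, a coreceptor of TGF-beta, had 76 against 15 and then 86 against 28. The 12 contractile genes of myofibroblasts had 122 against 98, which turned to 74 against 98 in lists of equal size, with Acta2, the smooth muscle actin gene, at 4 against 3. One of the 12, Srf, had 3 times the summits in wound-healing fibroblasts (4 against 1, then 3 against 2).

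Hox and regional genes had more summits in WT wound-healing fibroblasts although that list is shorter. The 10 HoxB genes had 62 summits in MMTV-CAFs and 96 in wound-healing fibroblasts, with 8 members higher in the latter, 0 in the former and 2 at 0 in both. In the sgPrrx1 lists Hoxb9 had 7 against 9, but Hoxb5 had 9 against 4 and Hoxb6 11 against 8, so the order was not kept. The HoxA genes had 77 against 98, the HoxC genes 47 against 52 and the HoxD genes 13 against 15. Of the HoxA genes, only Hoxa4 had 3 times the summits of the other type, on the MMTV-CAF side (4 against 1, then 5 against 5), and it held in lists of equal size. In the sgPrrx1 lists the sums were 59 against 70 for HoxA, 66 against 49 for HoxB, 52 against 19 for HoxC and 16 against 23 for HoxD, so HoxB and HoxC turned, and 5 of 9 HoxC genes there had 3 times the summits in MMTV-CAFs. Neighbouring Hox genes share summits, because their flanks overlap. The 39 regional transcription factor genes had 114 against 135, and 178 against 143 in the sgPrrx1 lists, where the order turned. Tbx18 and Osr1 were on the MMTV-CAF side, and Tbx3 (2 against 6, then turned to 6 against 3) and Pitx1 were among those on the wound-healing side. In lists of equal size Meis2, Meis1 and Emx2 were among those that joined them. Meis2, a partner of Hox proteins, had 6 summits in WT MMTV-CAFs and 17 in WT wound-healing fibroblasts, then 6 and 12. Meis1 had 5 against 10, then 4 against 6. Emx2 was higher in WT wound-healing fibroblasts (9 against 4) but not in the sgPrrx1 list (1 against 2).

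The remaining groups are given by their summed summits. The 16 matrix genes had 150 in MMTV-CAFs and 113 in wound-healing fibroblasts, with Dcn and Postn on the MMTV-CAF side. The sum turned to 80 against 113 in lists of equal size, and Dcn kept its side while Postn did not. Thbs1 joined the wound-healing side there. The 10 genes of the Tead and Yap group had 126 against 74 (76 against 74 in lists of equal size), of which Yap1 in the dense stretch gave 40 and 3. The markers of keratinocytes had 13 against 5, those of immune cells 17 against 7, and those of Schwann cells and melanocytes 26 against 10 (10 against 5, 11 against 7 and 16 against 10 in lists of equal size), and their part in the results at other genes was not tested. The 12 housekeeping genes had 50 against 54 summits, the 10 AP-1 genes 52 against 42, the 15 matrix metalloproteinases and inhibitors 112 against 72, the 20 cytokines and chemokines 74 against 50, and the 17 interferon and antigen presentation genes 34 against 40. In lists of equal size these sums were 38 against 54, 45 against 42, 67 against 72, 44 against 50 and 21 against 40, so the order of the metalloproteinases and of the cytokines turned. The order of the housekeeping and interferon genes turned in the sgPrrx1 lists, at 55 against 44 and 67 against 45. In the interferon group, Irf7 was on the wound-healing side (3 against 1, then 2 against 2) and H2-D1 on the other. Among cytokines, Cxcl5, a neutrophil chemoattractant, had 9 against 1, then 16 against 2, and Ccl7 had 5 against 1, then 5 against 5. The 16 nuclear receptors had 139 against 101, which turned to 78 against 101 in lists of equal size. Of them, Nr2f1 (9 against 2, then 10 against 0), Rarb, Vdr and Nr3c1 were on the MMTV-CAF side and Pgr on the other, and 0 of those 4 kept the MMTV-CAF side in lists of equal size. Of 16 cell-cycle genes (70 against 78, then 106 against 74), Mycn had 3 times the summits in wound-healing fibroblasts, with 0 against 4 and then 3 against 3. Mdm2 and Cdkn1a were in that class too in lists of equal size. The 12 Runx, Sox and skeletal genes had 87 against 50 (52 against 50 in lists of equal size), with Sox5, Sox9 and Egr1 on the MMTV-CAF side and Mkx, a tendon homeobox gene, on the other (0 against 3, then 5 against 4).

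Promoters seldom differed. A summit within 1 kb of a TSS was present in both types at 10227 genes, in MMTV-CAFs only at 768 (3.43% of genes) and in wound-healing fibroblasts only at 445 (1.99%). The median of the best promoter summit was 15.8 in the first class and 13.5 in the second, against 56.2 and 31.0 at promoters held by both. Of the MMTV-only promoters, 79.4% lay in an H3K4me3 region of MMTV-CAFs and 61.6% in one of wound-healing fibroblasts. Of the wound-only promoters, 62.9% and 88.8% did. H3K4me3 was therefore present in both types at most promoters whose H3K27ac was called in 1.

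The strongest promoters of 1 type illustrate this. Hoxc9, Fosl2, Ndst1, Cdk6 and Vasn on the MMTV-CAF side and Tnfrsf12a, Dusp4, Aup1, Sparc, Mageb3 and Csf1 on the other had H3K4me3 regions in both types and a summit of the other list 1020 to 5063 bp away. Parvb, which encodes the adhesion protein beta-parvin, was the exception, with a −log10 p of 82.8 in MMTV-CAFs and the nearest wound-healing summit at 39671 bp. Promoters with no summit of the other list within 10 kb, a limit set after these values were seen, numbered 522 and 265. They included those of Prdm6 (70.3), Pde3b (55.0), Kirrel3 (54.7) and Plac8 (50.6) for MMTV-CAFs. For wound-healing fibroblasts they included those of Inadl (54.2), the receptor phosphatase gene Ptprk (46.6), Kdr (41.6) and Slc38a1 (40.4).

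Summits of both lists were next chained into loci wherever neighbours lay within the stitching distance. Of 19200 loci, 12215 held summits of both types, 6062 (31.6%) of MMTV-CAFs only and 923 (4.81%) of wound-healing fibroblasts only. The type-only loci of lists of equal size numbered 3512 and 1516. Type-only loci were small, with 56.4% and 74.2% made of a single summit, and they contained 20.4% and 3.83% of the summits of their lists. Among those with 3 or more summits, 78.4% of 1116 MMTV-only loci had a summit in sgPrrx1 MMTV-CAFs and 53.2% in sgPrrx1 wound-healing fibroblasts. Of the 67 wound-only loci, 89.6% had one in sgPrrx1 wound-healing fibroblasts and 44.8% in sgPrrx1 MMTV-CAFs.

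Of the 8 MMTV-only loci with the highest summed −log10 p, 3 lay in the dense stretch of chromosome 9, 257 kb from Ddi1 (19 summits), at 1700128F08Rik (13) and at Mmp8 and Mmp27 (10). In sgPrrx1 MMTV-CAFs these loci had 0, 0 and 2 summits. The others were a locus 154 kb from Olfr1324 on chromosome X (18 summits, 10 in sgPrrx1 MMTV-CAFs), Kirrel3 (19 and 15), the matrix gene Spon2 (16 and 7), Abcg1 (8 and 5) and Prdm6 (11 and 2). All 5 had fewer summits in sgPrrx1 wound-healing fibroblasts, 0 to 5, than in sgPrrx1 MMTV-CAFs.

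The wound-only loci with the highest summed −log10 p included one 308 kb from Irx1, an Iroquois homeobox gene, with 9 summits in WT wound-healing fibroblasts, 7 in sgPrrx1 wound-healing fibroblasts and 1 in sgPrrx1 MMTV-CAFs. A locus 39.5 kb from Pde4b had 6 summits, then 3 against 0. Further loci lay in 2810055G20Rik (5, then 1 against 0), 194 kb from Trp63 (5, then 4 against 3), in the kinase-like receptor gene Ptk7 (4, then 3 against 2) and in Etv6 (8, then 6 against 0). Of these 6 loci, only that in Ptk7 held an H3K4me3 region of MMTV-CAFs.

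Super-enhancers were approximated by chaining the summits of each list within the stitching distance and ranking the clusters by summed −log10 p. MMTV-CAFs had 1168 above the point where the scaled curve reaches a slope of 1, of which 49.1% (46.3 to 52.0) overlapped a super-enhancer of wound-healing fibroblasts. Wound-healing fibroblasts had 779, of which 75.9% (72.7 to 78.7) overlapped one of MMTV-CAFs. The 594 and 188 others were nearly all typical clusters in the other type, with 11 and 2 absent from it. From lists of equal size they numbered 341 and 280. In the sgPrrx1 list of the same type 52.2% and 65.4% of them were super-enhancers again, and in that of the other type 38.4% and 27.1%.

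Genes of signalling and matrix lay in the top MMTV-CAF clusters that were not super-enhancers in wound-healing fibroblasts. Tgfbr3 ranked 4 in WT MMTV-CAFs and 1104 in WT wound-healing fibroblasts, and 2 and 308 in the sgPrrx1 lists. The cluster of Dut and Fbn1, the latter encoding the microfibril protein fibrillin-1, ranked 6 against 938, then 31 against 3500. Met ranked 8 against 2020, then 254 against 783. A cluster 40.7 kb from Myc ranked 15 against 1010, but 209 against 50 in the sgPrrx1 lists, where the order turned. Zcchc24 (34 against 1385, then 108 against 2838) and Fmnl3 (48 against 1716, then 138 against 287) followed. Yap1 ranked 3 against 4443, then 4954 against 3317, and a cluster 135 kb from Ddi1 ranked 41 against 6897, then 15875 against 6209, both in the dense stretch of chromosome 9.

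On the wound-healing side, Meis2 ranked 71 against 1911 in WT and 73 against 2127 in the sgPrrx1 lists, and it was a super-enhancer in WT MEFs too, at rank 20. Rusc2 ranked 65 against 3728, then 76 against 2754. Zbtb20, a zinc-finger repressor gene, ranked 115 against 4181, then 866 against 2743. Banp (21 against 1293, then 442 against 449), Dlx1 with Dlx2 (127 against 1551, then 781 against 888) and Ptbp1 (129 against 1341, then 289 against 645) were closer in the sgPrrx1 lists. The cluster at Tprg (40 against 1440) turned there, at 120 against 32, and that at Coro7 (102 against 2664, then 1447 against 4651) kept its order.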

How the data were processed

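Peak lists from ChIP-seq of cultured mouse fibroblasts were analysed. Groups came from the sample titles, with 1 library each, and the depth per sample is unknown because the lists give no read totals. According to the study's methods and the labels, the authors used Trimmomatic on paired reads, Bowtie for alignment to mm9, Picard to take out duplicates, and MACS2 with each input as control. In the deposited files an H3K27ac or Prrx1 entry is a 1-bp summit and its −log10 p. A deposited H3K4me3 entry is a region called in broad mode, with its −log10 p and its fold over input, a ratio. The lowest −log10 p was 5.01 in WT MMTV-CAFs and 5.06 in WT wound-healing fibroblasts. No fold enrichment is printed.

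Summits within 500 bp were called shared. Promoters (1 kb from a protein-coding TSS), genes (10 kb on each side), loci and clusters (ROSE's default stitching distance, between 12 and 13 kb) used GENCODE vM1 on NCBIM37, which is mm9. Of 405 entries in the gene lists, 2 matched no gene. Shares carry Wilson 95% intervals. Named items were gene list members and, per type, the 12 genes with the most summits against 0, 8 loci, 6 promoters, 8 super-enhancer clusters and the strongest distal summits. The members and lists were chosen with earlier results of these data known. Some of these items are not reported here. Genes named beyond these, such as Etv1, were chosen after their values were seen. The counting functions were checked on made lists of known content. Alternatives were other distances, a −log10 p of at least 10, lists of equal size, other TSS and gene windows, chaining within 5 kb, and, added after the data were seen, equal lists for genes with 3 times the summits and omission of the first 10 Mb of chromosome 9. Scripts used pandas 2.3.3, matplotlib 3.10.9, numpy 2.4.6 and scipy 1.17.1 under Python 3.11.15.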

Additional observations from a re-analysis of the deposited data

Results flagged for a closer look

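Sfn, a gene of stratified epithelia that belonged to the list of keratinocyte markers, changed sides between the WT and the sgPrrx1 lists. It had 3 summits in WT MMTV-CAFs and 1 in WT wound-healing fibroblasts, but 1 and 3 in the sgPrrx1 lists, and 3 in WT MEFs. A count of 3 is the least that the class allows. In the whole genome 55 of 1690 MMTV-CAF genes and 17 of 232 wound-healing genes changed sides in this way. The difference between the pairs was not tested, since each group had 1 library.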

How the results depend on the processing

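No paired analysis was possible because each group had 1 library. Depth is unknown, so a summit absent from a list may lie below its threshold, and lists of equal size address list length alone. At 250 bp and 1 kb the shared portion was 35.7% and 50.7% for MMTV-CAFs and 57.6% and 83.5% for wound-healing fibroblasts, the distal share of type-only summits 86.2% and 92.7%, and 67.0% and 79.9%, and their median strength percentile 34.4 and 31.3, and 36.7 and 29.4. In lists of equal size these were 59.2% and 61.0%, 85.0% and 72.6%, and 27.3 and 29.4. With a −log10 p of at least 10, the wound-healing share was 71.2%, the distal shares were 86.1% and 64.4%, the wound-only percentile was 33.1, and genes with 3 or more wound-healing summits against 0 fell to 19. With promoters within 2 kb the distal shares were 81.6% and 59.5%, and with TSS of any gene type 87.1% and 68.1%. Equal lists gave 112 genes with 3 or more MMTV-CAF summits against 0 and 66 of the reverse, 526 and 556 genes with 3 times the summits, 3512 MMTV-only and 1516 wound-only loci, and 341 and 280 super-enhancer clusters of 1 type. Chaining within 5 kb gave 9568 MMTV-only loci and 334 wound-healing clusters. Without the first 10 Mb of chromosome 9, the 12 summit, gene, locus and cluster results recomputed stayed within 1 interval width or 1.5 times of their values.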
